A study of Mus musculus with 2 samples.

Results

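Synaptic organizers are proteins that hold the sending and the receiving side of a synapse together and gather receptors opposite the release site. The members described here were taken by name: the secreted C1q-like proteins C1ql2 and C1ql3, the secreted cerebellins Cbln1, Cbln2 and Cbln4, the neuronal pentraxins Nptx1, Nptx2 and Nptxr, and the adhesion receptors Adgrb3 and Adgrl3. All rows carrying these symbols and all their transcripts were used, which gave 10 genes of 55536 annotated and 61 transcripts of 141864. C1q-like proteins and cerebellins form multimers that bridge presynaptic neurexins to postsynaptic receptors, pentraxins gather AMPA-type glutamate receptors, and Adgrb3 and Adgrl3 are G protein-coupled receptors with long adhesive outer parts. In the hippocampus, C1ql2 and C1ql3 are known for the mossy fibre synapse that dentate granule cells form on CA3 neurons, and the pentraxins for synapses onto interneurons.

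The RNA was polyadenylated RNA of mouse hippocampus, the memory-related brain region of the dentate gyrus and the CA fields, and the study holds 1 group of 2 libraries, replicate 1 and replicate 2. The labels name no treatment and give the tissue as adult, aged 6 months, of strain B6NCrl, described as C57BL/6 and male although the sex field reads as not collected, and each library was made from 20 ng of RNA by Nextera tagmentation. The labels number the libraries as biological replicates 1 and 2 and give separate tissue samples with a shared donor identifier. They do not say that the samples came from separate animals, so the spread between the libraries may be technical. There is no control and no second condition, so no test between conditions and no p-value is given, and every SD is over n = 2 libraries.

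The libraries held 38921662 and 39499350 expected reads in genes for replicate 1 and replicate 2, where an expected read is a read or part of a read that the quantification program assigned to a gene. Markers of the CA1, CA3, dentate granule and interneuron lists were present in both libraries, 22 of 23 at 1 TPM or more in each. Replicate 1 stood apart by choroid plexus, the tissue that secretes cerebrospinal fluid: 8 of 8 markers were more than 1.5-fold higher there, and they summed to 15287 TPM there, against 134 TPM in replicate 2. Most of that sum was Ttr, at 14956 TPM in replicate 1 and 117 TPM in replicate 2. Every ratio between the libraries below therefore compares a library with much choroid plexus RNA with a library with little.

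Levels are given in TPM, a measure scaled for transcript length and library depth, from the first of the deposited quantification programs unless the second is named. Nptx1 was the highest member at 165 ± 7.73 TPM, and the order went on with C1ql2 at 97.9 ± 0.219, Nptxr at 88.4 ± 23.4, C1ql3 at 24.8 ± 3.03, Adgrb3 at 24.3 ± 0.431 and Adgrl3 at 19.1 ± 2.33 TPM. The lowest members were Cbln2 at 8.98 ± 3.93, Cbln4 at 6.61 ± 3.89, Nptx2 at 2.48 ± 0.318 and Cbln1 at 1.02 ± 0.672 TPM (all SD, n = 2). Neighbours in this order whose libraries overlapped were C1ql2 with Nptxr, C1ql3 with Adgrb3, and Cbln2 with Cbln4, so these pairs have no order beyond their spread. The second program gave Adgrl3 20.2 ± 0.0699 TPM and Adgrb3 19.4 ± 0.446 TPM, the reverse of the first, so this pair has no order that holds in both programs. By family, the pentraxins together had 245 TPM in replicate 1 and 267 TPM in replicate 2, and the C1q-like pair had 120 and 125 TPM. The adhesion receptors had 44.8 and 42.1 TPM and the cerebellins 16.2 and 17.1 TPM.

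**Figure D1:**
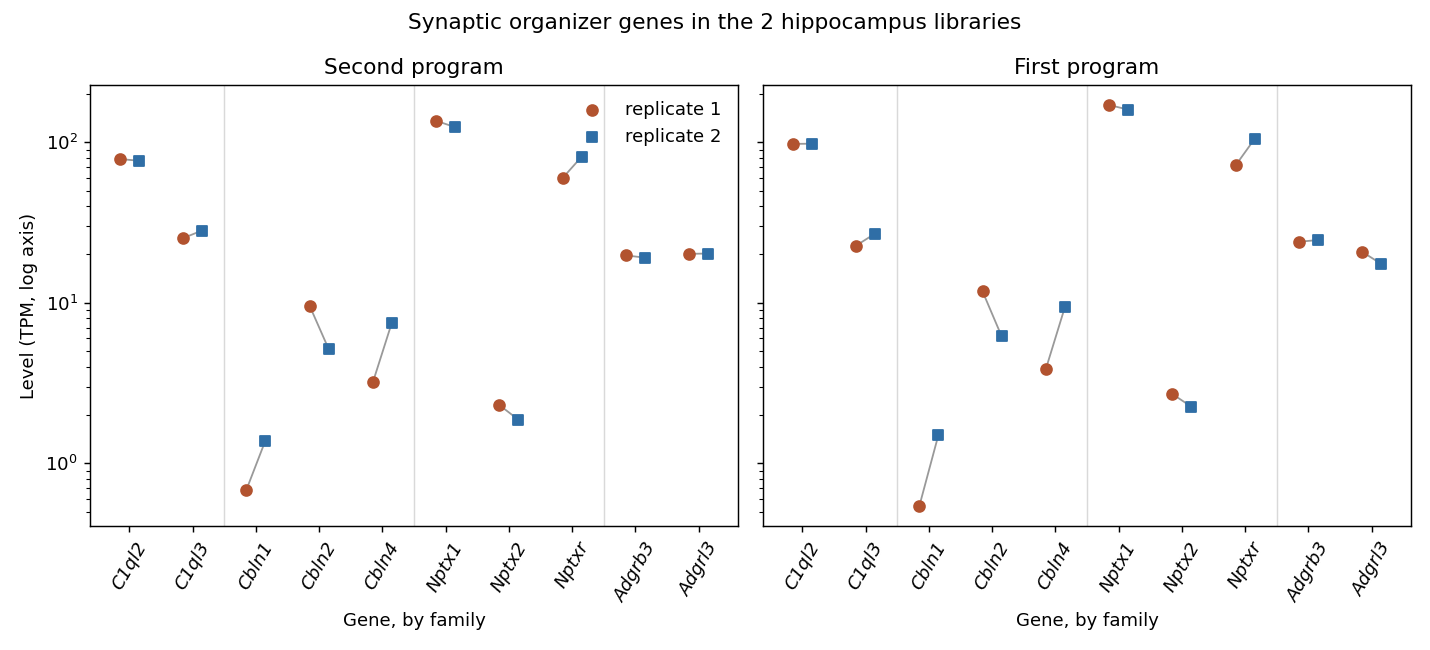
Levels of the 10 genes in TPM on a log axis, with the second program in the left panel, the first program in the right panel, replicate 1 as circles and replicate 2 as squares joined by a line. Nptx1 and C1ql2 lie near the top in both panels, and the steep lines belong to Cbln1, Cbln2 and Cbln4.

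The C1q-like genes lie on different chromosomes, C1ql2 at chr1:120340582-120343174 on the plus strand and C1ql3 at chr2:13003457-13011806 on the minus strand (mm10), and each has a single annotated transcript of 2 exons. Their coding sequences of 861 and 765 bases were 76.5% identical over 758 aligned bases, and the most alike 60 bases are shown because reads from such a stretch could be assigned to either gene. Capitals mark the 5 bases at which they differ, read 5′ to 3′ from the transcripts (C1ql2 at chr1:120341621-120341680, C1ql3 at chr2:13010381-13010440).
C1ql2: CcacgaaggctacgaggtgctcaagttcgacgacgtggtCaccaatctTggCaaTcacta
C1ql3: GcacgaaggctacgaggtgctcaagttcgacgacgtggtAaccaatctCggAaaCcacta
The longest run without a difference was 38 bases. Of the 31-base words in C1ql2, 0.66% also occurred in C1ql3, and the posterior SD of the expected reads, which measures how freely reads could be reassigned, was 0 for C1ql2.

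C1ql2, a ligand of neurexins and kainate receptors at mossy fibre synapses, had 97.7 TPM in replicate 1 and 98.0 TPM in replicate 2, from 5507 and 5658 reads. The libraries were level, with a log2 ratio of replicate 1 over replicate 2 of -0.03 and a 95% counting interval of -0.09 to 0.02. C1ql3, a related ligand that binds Adgrb3, had 22.7 TPM in replicate 1 and 27.0 TPM in replicate 2, from 1649 and 2005 reads. Replicate 1 was lower, at a log2 ratio of -0.27 with an interval of -0.37 to -0.18, which stays inside 1.5-fold. C1ql2 made up 81.2% of the summed level of the pair in replicate 1 and 78.4% in replicate 2, so most of the C1q-like RNA measured was C1ql2 in both libraries. C1ql3 has antisense neighbours whose single exons cover parts of it. Of its 31-base words, 62.8% occur in other genes on either strand, most in Gm37811, which held 13 reads in replicate 1 and 27 in replicate 2. The posterior SD of C1ql3 was 5.03 reads in replicate 1 and 6.11 reads in replicate 2. Whether strand was used in the counting is not stated, so C1ql3 reads in these shared words may not be told apart from reads of the antisense records. These intervals come from the reads alone and cover counting error only, and in bulk tissue fewer cells of a type and less RNA per cell cannot be told apart.

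The cerebellins were the family that differed between the libraries: 3 of 3 passed 1.5-fold, and 0 of the 7 other members did. Of 14078 genes with a mean of at least 50 reads, 7.76% passed 1.5-fold, and 2.41% passed 2-fold, as did 2 of the 10 members. The median absolute log2 ratio was 0.22 over the members and 0.16 over all genes tested. Direction was mixed within the family. Cbln2 was higher in replicate 1 past 1.5-fold but not past 2-fold. Of the 14078 genes, 5.48% were higher in replicate 1 past 1.5-fold and 1.97% past 2-fold. Cbln1 and Cbln4 were higher in replicate 2 past both folds. Of the 14078 genes, 2.27% were higher in replicate 2 past 1.5-fold and 0.433% past 2-fold.

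Cbln4, a cerebellin that binds the netrin receptors DCC and neogenin as well as neurexins, lies at chr2:172036233-172043466 on the minus strand. It had 3.86 TPM in replicate 1 and 9.36 TPM in replicate 2, from 324 and 802 reads. Replicate 1 was lower, at a log2 ratio of -1.30 with an interval of -1.49 to -1.11. The gene has 1 transcript and no 31-base word in common with another gene, so the assignment of its reads was not shared, and the second program gave 3.20 TPM in replicate 1 and 7.52 TPM in replicate 2.

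Cbln2, which links neurexins to delta glutamate receptors, lies at chr18:86711110-86718283 on the plus strand. It had 11.8 TPM in replicate 1 and 6.20 TPM in replicate 2, from 743 and 392 reads. Replicate 1 was higher, at a log2 ratio of 0.93 with an interval of 0.75 to 1.11. It was thus the opposite of Cbln4. In replicate 1 Cbln2 was 72.8% and Cbln4 23.9% of the cerebellin TPM, whereas in replicate 2 Cbln2 was 36.4% and Cbln4 54.9%. The second program gave the same exchange, with Cbln2 at 71.1% and Cbln4 at 23.8% in replicate 1 and Cbln2 at 36.7% and Cbln4 at 53.5% in replicate 2.

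The 4 transcripts of Cbln2 all encode the same 672 bases and differ in their ends. The programs disagreed on which of them led. The second program placed 84.2% of the TPM on Cbln2-201 and none on Cbln2-204, while the first placed 28.3% on Cbln2-201 and 45.3% on Cbln2-204. The first program's posterior SD for Cbln2-204 was 55.2 of 327 reads in replicate 1 and 36.2 of 182 reads in replicate 2, so the split between these ends was loosely determined there. The read count of Cbln2 as a gene does not turn on this split. Its TPM can, since the transcripts are between 1907 and 2549 bases long.

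Cbln1, the founding cerebellin, acts between cerebellar granule and Purkinje cells and is mainly a cerebellar gene. It lies at chr8:87468405-87472609 on the minus strand and was the lowest member, with 31 reads in replicate 1 and 80 in replicate 2. The log2 ratio was -1.35, with an interval of -2.01 to -0.75, from few reads: among tested genes with a mean of 50 to 100 reads, 23.2% passed 1.5-fold. As the first program assigned the reads, most of the difference lay in a transcript with no coding sequence. Cbln1-203, which starts inside the gene, had 14.2 expected reads in replicate 1 and 59.0 in replicate 2, while the 2 coding transcripts together had 16.8 and 21 of them. The posterior SD for Cbln1-203 was 5.11 reads in replicate 1 and 7.32 in replicate 2. For the coding Cbln1-201 it was 6.10 of 10.9 reads in replicate 1 and 7.85 of 8.29 in replicate 2, so the coding count was loosely determined. Counted over coding transcripts alone the log2 ratio of Cbln1 was -0.29, inside 1.5-fold, so its call ended (this count was chosen after seeing the data). A long non-coding gene on the opposite strand, Gm2694, spans Cbln1, and its exons neither overlap those of Cbln1 nor hold a 31-base word in common with it. It had 113 reads in replicate 1 and 177 in replicate 2, so it too was lower in replicate 1, and its part in the Cbln1 ratio was not tested.

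The cerebellin coding sequences were between 70.6% and 73.7% identical over their aligned bases, and the longest run without a difference was 21 bases. The most alike 60 bases of Cbln1 and Cbln4 are shown to make the distance between the family members visible, with capitals at the 8 bases that differ (Cbln1 at chr8:87472118-87472177, Cbln4 at chr2:172042167-172042226).
Cbln1: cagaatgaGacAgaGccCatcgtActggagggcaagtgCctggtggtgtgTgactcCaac
Cbln4: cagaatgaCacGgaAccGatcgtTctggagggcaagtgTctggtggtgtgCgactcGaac
In this stretch a difference falls within every 31-base word, so a read of that length carries at least 1 base that tells these 2 genes apart. By identity this pair was the least alike of the family, at 70.6%. Cbln1 and Cbln2, at 73.7%, matched at 54 of their most alike 60 bases.

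In each of the lists of thalamus, neocortex and cerebellum markers, 1 gene passed 1.5-fold. Of the thalamus list, 1 of 7 tested genes passed 1.5-fold: the transcription factor gene Tcf7l2, at 95.9 TPM in replicate 1 and 58.6 TPM in replicate 2, and the list summed to 130 and 98.5 TPM. The other 6 had negative log2 ratios, the median of the 7 was -0.07, and without Tcf7l2 the list summed to 34.6 TPM in replicate 1 and 39.9 TPM in replicate 2. Of the neocortex list, 1 of 5 passed: Rorb, at 21.1 TPM in replicate 1 and 7.30 TPM in replicate 2, and the list summed to 108 and 94.5 TPM, or to 86.5 and 87.2 TPM without Rorb. The gene left out of the thalamus list and of the neocortex list was picked for being higher in replicate 1. The sums without it were therefore bound to shift towards replicate 2, and nothing is concluded from them. The median log2 ratio of the 5 tested neocortex genes was 0.17, with 3 higher and 2 lower in replicate 1. Of the cerebellum list, 1 of 3 tested genes passed: Car8, higher in replicate 2, at 3.63 TPM in replicate 1 and 6.47 TPM in replicate 2, and the list summed to 9.77 and 12.3 TPM, or to 6.14 and 5.85 TPM without Car8. Car8 was picked for being higher in replicate 2. The sum without Car8 was therefore bound to shift towards replicate 1, and nothing is concluded from it. Of the other tested genes of the cerebellum list, 2 were higher in replicate 1 and 0 lower, none past 1.5-fold. Gabra6, Barhl1 and Pcp2 had too few reads to be tested. Gabra6 and Barhl1 had 0 reads in replicate 1 and 1 read each in replicate 2, and Pcp2 had 3 in each, where 0 reads allow up to 3. Zic1 had 514 reads in replicate 1 and 483 in replicate 2, and Slc1a6 had 133 and 113. The interneuron list summed to 345 TPM in replicate 1 and 337 TPM in replicate 2 with none past 1.5-fold. The CA1 list summed to 193 and 239 TPM, with 1 gene higher and 4 lower in replicate 1. The CA3 list had 1 higher and 5 lower, and Iyd passed 1.5-fold, higher in replicate 2. The dentate granule list had 4 higher and 2 lower. The subiculum, entorhinal and retrosplenial list summed to 25.35 and 28.81 TPM, with 0 higher and 4 lower. The part of any of these markers, or of the choroid plexus markers, in the cerebellin ratios was not tested.

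**Figure D2:**
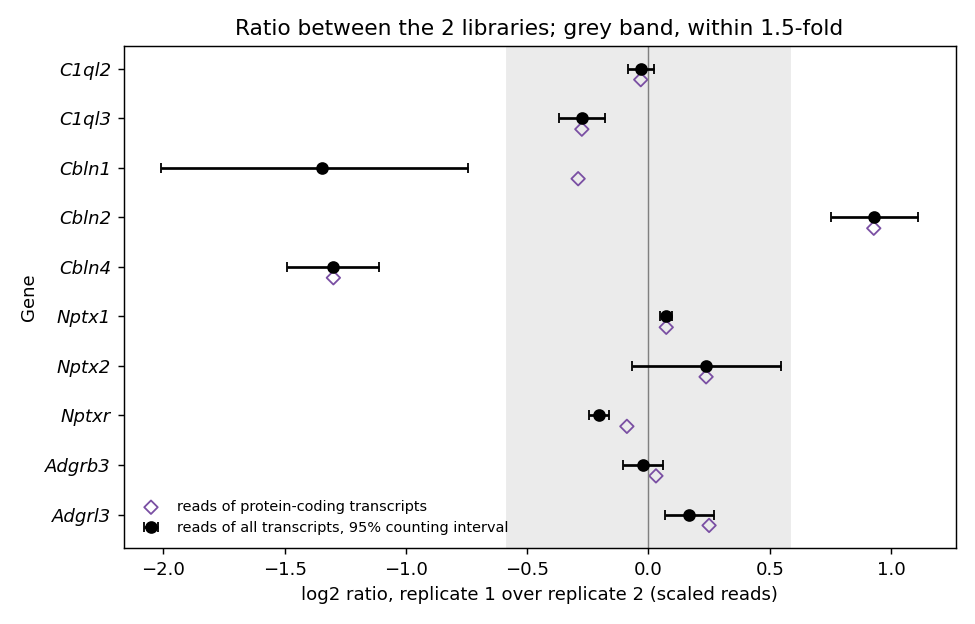
Log2 ratio of replicate 1 over replicate 2 for each gene from scaled reads, with bars for the 95% counting interval and open diamonds for the ratio over protein-coding transcripts alone; the grey band lies within 1.5-fold. Cbln2 lies right of the band and Cbln4 left of it by either count, while Cbln1 moves from -1.35 to -0.29 when only coding transcripts are counted.

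The pentraxins are named for a shared domain, and the first coding bases are shown because Nptxr differs from the secreted pair at its very start. Nptx1 and Nptx2 are secreted, whereas Nptxr is held in the membrane and can be cut free. In the transcripts the coding sequences of Nptx1 and Nptx2 open with ATG and that of Nptxr with CTG. Capitals mark the first annotated codon (Nptx1 at chr11:119547560-119547589, minus strand; Nptx2 at chr5:144546064-144546093, plus strand; Nptxr at chr15:79804554-79804583, minus strand).
Nptx1: ATGctggccggccgcgccgcacgcacctgt
Nptx2: ATGctggcgctgctgaccgtcggcgtggcg
Nptxr: CTGaagttcctggccgtgctgctggccgcg
Over their aligned coding bases the 3 genes were between 65.7% and 68.9% identical, with no identical run over 19 bases.

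Nptx1, a constitutively made pentraxin, lies at chr11:119538719-119547753 on the minus strand and had 171 TPM in replicate 1 and 160 TPM in replicate 2, from 26378 and 25196 reads. The libraries were nearly level, with a log2 ratio of 0.07 and an interval of 0.05 to 0.10. Nptx2, also known as Narp, is an activity-induced pentraxin, lies at chr5:144545902-144557478 on the plus strand and had 2.70 TPM in replicate 1 and 2.25 TPM in replicate 2, from 196 and 167 reads. Its log2 ratio was 0.24 with an interval of -0.07 to 0.54, so a difference was not detectable at this depth. Nptx2 was 1.10% of the pentraxin TPM in replicate 1 and 0.842% in replicate 2, the smallest share in the family by either program. Of 8 immediate-early genes, which mark recent neuronal activity, 2 passed 1.5-fold higher in replicate 1 (Fos, Nr4a1) and 1 higher in replicate 2 (Npas4), and they summed to 268 and 245 TPM.

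Nptxr, the pentraxin receptor, lies at chr15:79786351-79804766 on the minus strand and had 71.8 TPM in replicate 1 and 105 TPM in replicate 2, from 9020 and 10439 reads. Replicate 1 was lower, with a log2 ratio of -0.55 by TPM and of -0.20 by reads (interval -0.24 to -0.16). The gap between the quantities lay in a short transcript. Nptxr-202, of 999 bases and no coding sequence, starts inside the gene and had 318 reads in replicate 1 and 1136 in replicate 2, which at its length made 12.3 and 42.6 TPM. Its log2 ratio by reads was -1.83; of 26330 single transcripts with a mean of at least 50 reads, 20.5% passed 1.5-fold and 8.91% passed 2-fold. The coding transcripts together had 59.5 TPM in replicate 1 and 62.3 TPM in replicate 2, and the log2 ratio of their reads was -0.09. The second program gave the same division, since it set Nptxr-202 at 10.9 TPM in replicate 1 and 33.1 TPM in replicate 2.

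The exon that only Nptxr-202 has joins the first of its exons that the coding transcripts also have as follows, with capitals for the shared exon (chr15:79790818-79790832 and chr15:79790431-79790445, minus strand).
Nptxr-202: tgaagcctctccaagGTGGCCCAGCTGCCC
That shared exon, of 180 bases, is also an exon of Npcd, a neighbouring protein-coding gene on the same strand at chr15:79789675-79834237 that runs through Nptxr. Npcd transcripts hold 862 of the 31-base words of Nptxr, 40.9% of the words of Nptxr-202 and 17.6% of those of Nptxr-203. Npcd had 200 reads in replicate 1 and 1555 in replicate 2 by the second program, and 86 and 973 by the first. Its log2 ratio was -3.49, so the neighbour was lower in replicate 1, as Nptxr-202 was. Reads inside the shared exons cannot be told apart between the genes, and the part of Npcd in the Nptxr-202 level was not tested.

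The coding transcripts Nptxr-201 and Nptxr-203 encode the same 1479 bases and differ at the outermost ends. The programs placed them differently. The second gave Nptxr-201 50.2% of the gene's TPM in replicate 1 and 59.1% in replicate 2, while the first gave it 3.62% and 4.79%. Nptxr-203 had 31.6% in replicate 1 and 0.21% in replicate 2 by the second program, so its share there differed widely between the libraries, and 79.2% and 54.6% by the first. Together with Cbln2, Nptxr was thus 1 of 2 members, of 5 with several transcripts, whose leading transcript differed between programs in both libraries. Of 8021 genes with several transcripts and at least 5 TPM in both libraries and programs, 5.34% did. Cbln1, counted among the 5 members, lay below that level. Ranked by share of reads in place of TPM, Adgrl3 joined Cbln2 and Nptxr, which made 3 of 5 members and 306 of the 8021 genes. At the level of whole genes 0 of the 10 members passed 1.5-fold between programs, against 1.84% of 9134 genes with a mean of at least 5 TPM in each program. Cbln1 and Nptx2, counted among the 10, lay below that mean.

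**Figure D3:**
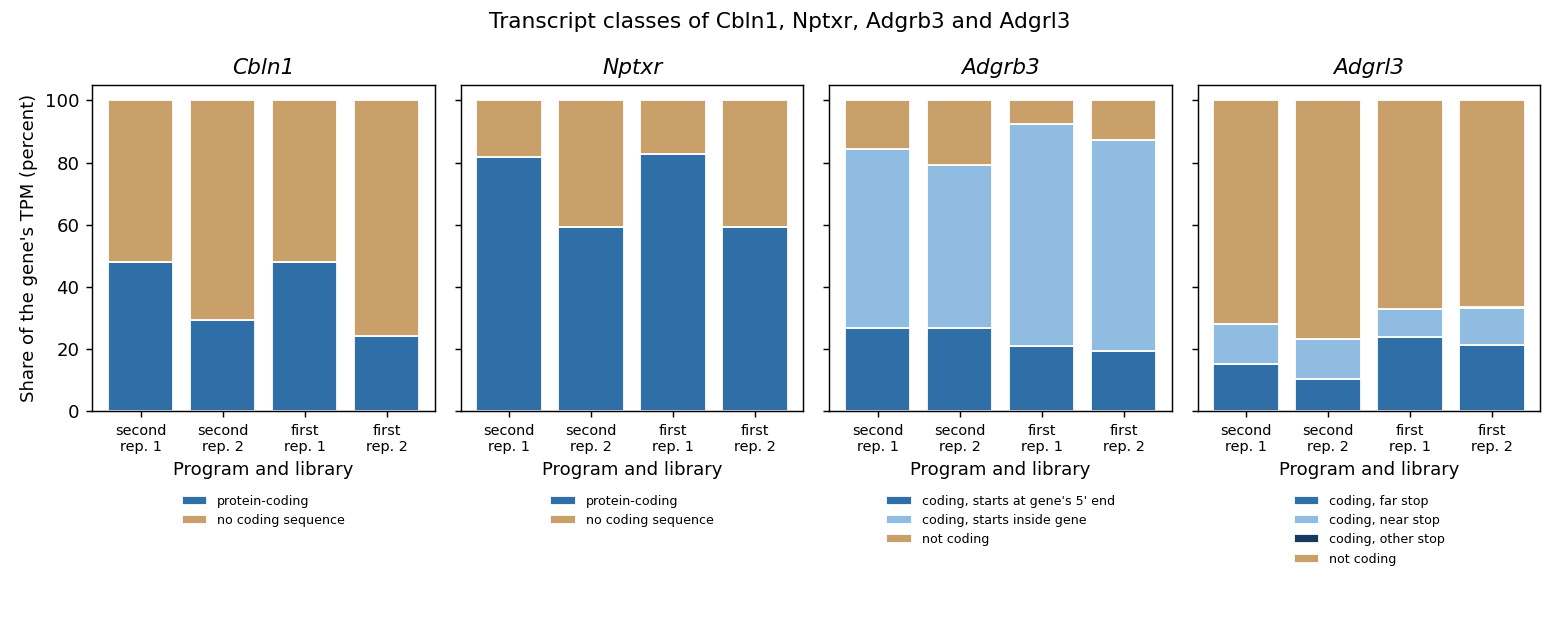
Share of each gene's TPM by transcript class, in percent, for Cbln1, Nptxr, Adgrb3 and Adgrl3, with the second program's libraries left of the first program's and replicate 1 left of replicate 2. The brown non-coding share of Cbln1 and Nptxr is larger in replicate 2 by both programs, and in Adgrl3 the non-coding share is above 66% in every bar.

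Adgrb3, also known as Bai3, is the brain adhesion receptor that C1q-like proteins bind. It spans chr1:25067476-25829707 on the minus strand and had 24 TPM in replicate 1 and 24.6 TPM in replicate 2, from 2427 and 2477 reads. The libraries were level, with a log2 ratio of -0.02 and an interval of -0.10 to 0.06. Of its 11 transcripts 3 held at least 5% of the TPM in either program, and 8 did not.

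The leading transcript of Adgrb3 was not the longest one. Adgrb3-203 starts far inside the gene and has 1956 coding bases, against 4566 in Adgrb3-207, which starts at the 5′ end. Adgrb3-203 held 55% ± 3.73 of the TPM by the second program and 69.7% ± 2.48 by the first, and Adgrb3-207 held 26.8% by the second and 20.0% by the first (SD, n = 2). By reads, which do not divide by length, Adgrb3-203 had 1463 in replicate 1 and 1458 in replicate 2, and Adgrb3-207 had 814 and 772, by the first program. By the second program the reads lay closer, with 1581 for Adgrb3-203 and 1384 for Adgrb3-207 in replicate 1, and 1463 and 1412 in replicate 2. The order was therefore the same in both libraries and both quantities, but the lead by reads was small by the second program. The retained-intron transcript Adgrb3-208 held 17.3% of the TPM by the second program and 9.27% by the first.

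The leading Adgrb3 transcript is shown by its coding start, at chr1:25226791-25226820 with capitals for the first codon. Its junction into the first exon it shares with Adgrb3-207 is shown for both transcripts, with capitals for the shared exon. The coding start lies downstream of that junction. Of these stretches, only the bases before the shared exon are taken to set Adgrb3-203 apart. The shared exon begins with chr1:25228533-25228547.
Adgrb3-203 start: ATGgaatcctctggtaccccctcagttacc
Adgrb3-207 junction: ggatgactcaaaatcGAACGAGTCTTTGGG
Adgrb3-203 junction: gattttttttttcctGAACGAGTCTTTGGG
The junctions end in the same 15 bases. In the mm10 annotation Adgrb3-203 enters the exon from chr1:25228655-25228669 and Adgrb3-207 from chr1:25396436-25396450.

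Adgrl3, or latrophilin 3, binds teneurins and FLRT proteins across the synapse. It spans chr5:81020138-81825133 on the plus strand and had 20.8 TPM in replicate 1 and 17.5 TPM in replicate 2, from 1714 and 1533 reads. Replicate 1 was higher, with a log2 ratio of 0.17 and an interval of 0.07 to 0.27, inside 1.5-fold. The second program set it at 20.2 TPM in replicate 1 and 20.3 TPM in replicate 2, so the libraries were level there.

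The Adgrl3 level in TPM was mostly not protein-coding. Its coding transcripts, 20 of 35, had 6.84 TPM in replicate 1 and 5.87 TPM in replicate 2, which was 33.2% ± 0.432 of the gene's TPM, but they held 61.9% ± 2.48 of its reads (SD, n = 2). The transcript with the highest TPM in both programs was Adgrl3-229, which has 241 bases and no coding sequence. It had 5.72 TPM in replicate 1 and 3.98 TPM in replicate 2 from only 17 and 13 reads, 25.1% of the TPM and 0.92% of the reads by the first program. A level per length for so short a transcript rests on few reads. Over coding transcripts alone, its libraries overlapped those of Cbln2 and Cbln4, so these 3 genes have no order on that measure. The antisense gene Gm16054 shares 1527 of the 31-base words of Adgrl3 on the other strand and had 15 reads in replicate 1 and 11 in replicate 2.

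Adgrl3 is known for extensive alternative splicing, and 6 exons were skipped or used in more than 5% and less than 95% of the coding TPM that spans them. The order below runs 5′ to 3′, and each share is the mean over the libraries. The 204-base exon at chr5:81329757-81329960 was included at 56.9% ± 12.3 by the second program and 67.5% ± 5.99 by the first. The 39-base exon at chr5:81663386-81663424 was included at 77.1% ± 2.53 by the second program and 59.5% ± 4.92 by the first, and a single coding transcript, the 5′-truncated Adgrl3-220, accounted for its skipping. The programs thus disagreed in direction on which of these was used more. The 27-base exon at chr5:81757986-81758012 was included at 34.3% ± 6.99 by the second program and 31.9% ± 2.66 by the first, and the 129-base exon at chr5:81787436-81787564 at 22.4% ± 4.60 and 15.3% ± 2.17 (all SD, n = 2). For both, skipping exceeded inclusion in each library and program. The 39-base and 27-base exons are shown in capitals between the adjoining coding bases.
Adgrl3 39-base exon: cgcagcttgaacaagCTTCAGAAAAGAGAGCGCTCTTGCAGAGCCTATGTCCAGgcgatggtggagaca
Adgrl3 27-base exon: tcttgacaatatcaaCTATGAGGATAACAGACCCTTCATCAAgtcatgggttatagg
Both lengths are multiples of 3, so these exons add or remove codons without shifting the frame.

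The last alternative exon sets the end of the Adgrl3 protein. From the same start, at chr5:81792361 on the plus strand, it is 18 or 52 bases long where it is used. The lines below show both forms in capitals between the same flanking exons.
Adgrl3 18-base exon: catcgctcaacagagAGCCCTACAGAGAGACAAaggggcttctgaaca
Adgrl3 52-base exon: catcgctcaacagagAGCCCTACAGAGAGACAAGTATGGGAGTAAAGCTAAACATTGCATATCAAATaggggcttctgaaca
The longer form adds 34 bases, which is not a multiple of 3. Of the 8 coding transcripts that end at the nearer stop codon, 8 have the 52-base form. Of the 11 that end at the farther stop codon, 739 bases downstream, 0 have it. Of those 11, 3 have the 18-base form and the rest have neither form. The last coding bases at the nearer stop (chr5:81794295-81794324) and the farther stop (chr5:81795034-81795063) follow, with the stop codon in capitals.
Adgrl3 near stop: tgtcatggatactctaccactgaatggTAA
Adgrl3 far stop: ggacccgcgcacttggtcactagtctaTAG
The 52-base form was included at 51.0% ± 6.90 of spanning coding TPM by the second program and 32.0% ± 5.99 by the first, and the 18-base form at 17.3% ± 5.91 and 19.5% ± 8.16 (SD, n = 2). Per library, the nearer stop had 2.63 TPM in replicate 1 and 2.64 TPM in replicate 2 by the second program and 1.90 and 2.11 TPM by the first. The farther stop had 3.07 TPM in replicate 1 and 2.08 TPM in replicate 2 by the second program and 4.94 and 3.71 TPM by the first. The farther stop was thus ahead in both libraries by the first program and in replicate 1 only by the second, and which protein end led was not settled between the programs.

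**Figure D4:**
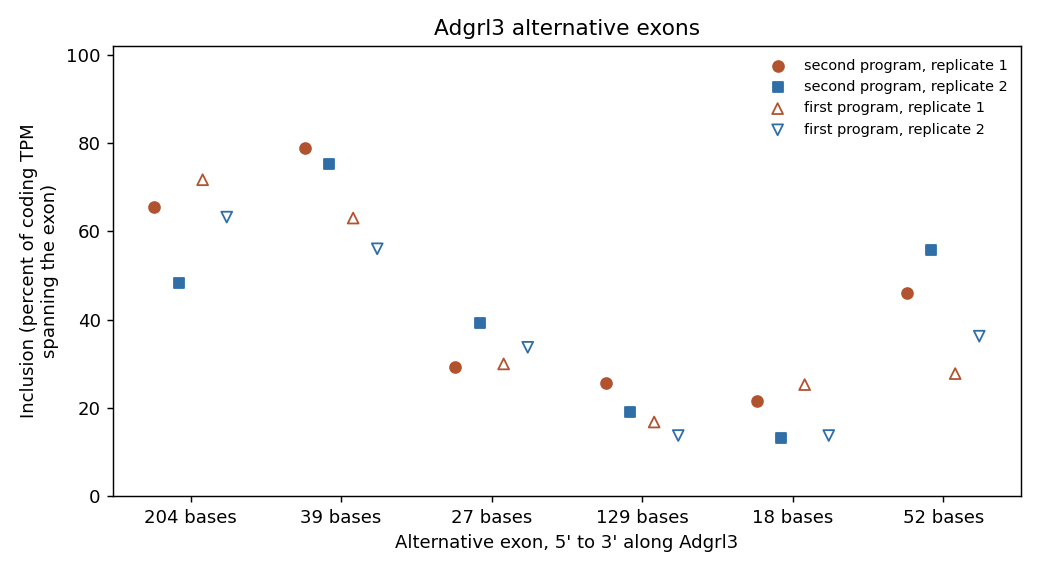
Inclusion of the 6 alternative exons of Adgrl3 in percent of the coding TPM that spans each exon, ordered 5′ to 3′, with filled symbols for the second program and open symbols for the first, replicate 1 left of replicate 2 within each program. The 27-base and 129-base exons stay below 40% in every library and program, and the 52-base form is higher by the second program than by the first in both libraries.

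The genes that these organizers bind or belong with were mostly present, and none passed 1.5-fold between the libraries. Of 45 partner genes listed, 40 had a mean of at least 50 reads, 40 were at 1 TPM or more in both libraries, and 0 of the 40 passed 1.5-fold in either direction, beside 7.76% of all genes; the median log2 ratio was -0.03 over the partners and -0.01 over all genes. Among neurexins, the presynaptic receptors of C1q-like proteins and cerebellins, Nrxn3 had 36.5 TPM in replicate 1 and 38.6 TPM in replicate 2. Of the delta glutamate receptors, the postsynaptic receptors of cerebellins, Grid1 was lower than Nrxn3 in both libraries, at 7.15 and 7.08 TPM. The netrin receptors that Cbln4 binds were level as well, with Neo1 at 7.16 TPM in replicate 1 and 6.90 TPM in replicate 2 and Dcc at 6.21 and 6.67 TPM, while Cbln4 itself was not.

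AMPA receptor subunits, which pentraxins gather, ranged between Gria2 at 198 TPM in replicate 1 and 172 TPM in replicate 2 and Gria4 at 8.59 and 9.95 TPM. Kainate receptor subunits, the partners of the C1q-like ligands, ranged between Grik2 at 13.2 TPM in replicate 1 and 13.0 TPM in replicate 2 and Grik3 at 1.35 and 1.99 TPM. Grik3, with a log2 ratio of -0.58, lay just inside 1.5-fold and passed it at -0.59 with relative log expression scaling. Of the FLRT, teneurin and UNC5 list, the partners of Adgrl3, Tenm4 was highest at 24.6 TPM in replicate 1 and 34.8 TPM in replicate 2, and Unc5b lowest at 1.15 and 1.59 TPM. Of the sheddase, ELMO-DOCK and Nogo receptor list, which holds the enzyme that cuts Nptxr and the effectors of Adgrb3, Elmo2 was highest at 85.7 TPM in replicate 1 and 99.8 TPM in replicate 2, and Adam17 lowest at 3.35 and 2.94 TPM. Of the other family members, Adgrb2 was highest at 34.7 TPM in replicate 1 and 36.4 TPM in replicate 2, and Apcs and Crp, liver pentraxins, had 0 reads in both libraries, which allows up to 3 reads each.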

How the data were processed

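Per the labels, polyadenylated RNA of mouse hippocampus was sequenced in 2 libraries of 1 group. The deposited tables use mm10 and GENCODE M21, per the text beside them. Per the file headers, the first program's gene and transcript tables, laid out like those of RSEM, hold the expected count (an estimated count of reads), TPM, FPKM and a posterior SD. The second program's transcript tables, laid out like those of kallisto, hold an estimated count and TPM. For neither program is a name or version given in the sources used here. FPKM, deposited by the authors on its own scale, served for the order of members only.

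Rows that name no gene (26345, holding 2.31e-05% of the reads of replicate 1 and 1.64e-05% of those of replicate 2) stayed out. Expected counts were rounded to whole numbers and scaled by TMM (edgeR 4.0.16, R 4.3.3; DESeq2 1.42.0 for an alternative). The log2 ratio used a prior count of 0.5, with an exact 95% conditional binomial interval (Clopper-Pearson). Past 1.5-fold is a description, not a test. TPM of the second program was summed per gene. Exon inclusion is the share of protein-coding TPM among transcripts holding both flanking exon ends. Sequences and exon positions came from the GENCODE M21 transcripts, aligned with Biopython 1.88. The ratio was tested on simulated data. Counts without molecular identifiers are not independent molecules. Members, lists and thresholds were chosen with earlier results of these data known. All members were named, transcripts with a mean share of at least 5% in either program were named, and of each partner list the highest, the lowest and any gene past 1.5-fold; named in addition, after their values were seen, were overlapping genes, the alternative exons and the Cbln2 and Nptxr ends. Some genes and 1 sequence that these rules take are not reported here.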

Additional observations from a re-analysis of the deposited data

How the results depend on the processing

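Members past 1.5-fold between the libraries numbered 3, and past 2-fold 2, under relative log expression scaling, library totals, the second program, a prior count of 5 and TPM with a pseudocount of 0.1. Over protein-coding transcripts only, chosen after seeing the data, they numbered 2 and 1, Cbln1 being lost; by construction this leaves out Cbln1-203. The 3 cerebellins kept their direction under every alternative run, and no member's called ratio reversed. Genes past 1.5-fold numbered 1092 and rose to 2384 at a mean count of at least 10 and 9653 without a filter; past 2-fold they numbered 339, then 907 and 6918; more genes are tested in each. Partner genes past 1.5-fold numbered 0, then 1 with relative log expression scaling (Grik3) and 1 by the second program (Rtn4rl2, log2 ratio -0.61); the cause was not tested. Genes past 1.5-fold between programs numbered 168, 364 at 1 TPM or more, and 216 to 288 with a single library; genes whose leading transcript differed numbered 428, and 736 to 859 with a single library, where agreement of both libraries is no longer asked. By share of reads, the members whose leading transcript differed numbered 3 in place of 2. Of 60 alternative log2 ratios of members 4 moved beyond the counting interval, and of 60 alternative mean levels 12 moved by more than the SD; of 70 alternative positions in the order of levels 11 moved. Depth limits Cbln1 and Nptx2 most, and short transcripts such as Adgrl3-229 rest on a few reads. No paired analysis was possible because the series holds a single group.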
